A study of Homo sapiens with 16 samples.

Results

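The clustered protocadherins are 53 protein-coding genes that lie side by side on human chromosome 5, and they were followed here in SH-SY5Y, an established human neuroblastoma cell line. The members were all rows of the deposited tables whose Ensembl identifier has a symbol of the PCDHA, PCDHB or PCDHG families with a number, or PCDHAC1 or PCDHAC2: 15 alpha, 16 beta and 22 gamma genes of 26410 genes in all. They span chr5:140786136-141512981 (GRCh38, GENCODE 29), and every one is read from the plus strand. The study asked how deletion of the ion channel TRPM2 changes gene expression with and without doxorubicin, a topoisomerase inhibitor used against neuroblastoma. Poly(A) RNA was sequenced from 4 clones, each grown from a single edited cell, with 2 libraries per clone and treatment and so 16 libraries. KO11 and KO28 are labelled TRPM2 KO and received a guide RNA to TRPM2, while Scr13 and Scr16 received a scrambled guide. All 4 clones carry a donor with GFP and puromycin resistance. In each clone, 2 libraries were untreated and 2 came from cells given doxorubicin for 24 h at 0.3 µM by the sample labels, although the series' design text gives 3 µM. A clone's libraries share that clone, so a p-value over libraries covers the spread among these libraries and not the spread over many independently edited clones.

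Clustered protocadherins are cadherin-like adhesion proteins of the cell surface that bind the same protein on a neighbouring cell and give single neurons a surface identity. Each gene has its own promoter, a neuron uses only a few of them, and the choice is made through promoter DNA methylation and through loops that CTCF and cohesin form between a promoter and distant enhancers. In the alpha and gamma arrays each variable first exon is spliced to shared constant exons that encode a common tail inside the cell. The beta genes have a single coding exon and no constant tail. The C-type members (PCDHAC1, PCDHAC2, PCDHGC3, PCDHGC4 and PCDHGC5) stand at the ends of the alpha and gamma arrays and are used more uniformly across neurons than the alternate members.

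The labels were checked first on TRPM2 itself (chr21:44350163-44443081, plus strand). Untreated, TRPM2 stood at 1.93 and 2.23 normalized CPM in the libraries labelled KO11 and at 1.41 and 2.19 in those labelled KO28, against 0.118 and 0.115 in Scr13 and 0 and 0 in Scr16. After doxorubicin the values were 1.22 and 1.83 (KO11), 1.37 and 0.658 (KO28), 0.0594 and 0.0631 (Scr13) and 1.33 and 0.39 (Scr16). Reads of TRPM2 were thus higher, not lower, in the untreated libraries labelled TRPM2 KO, where 3 reads, the floor used here, amount to 0.118 to 0.285 normalized CPM depending on the library. Reads were counted over the whole gene, and the reported edit removes the start of the coding sequence and shifts the frame, so these reads do not check the edit. The groups are therefore named by their labels, and every difference between them is given as libraries labelled TRPM2 KO against Scr libraries. A swap of the labels would turn the sign of each of those differences and was not tested here. By the study's methods, the KO and Scr lines were authenticated by RT-PCR and Western blotting. Cell cycle genes were also measured in KO and Scr cells by RT-qPCR and Western blotting. For E2F1 and FOXM1 after doxorubicin, the paper reports lower levels in KO cells by both methods. That is the direction of its RNA-seq under these labels. Those measurements are not analysed here.

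Short promoter stretches are shown first because the members differ mainly in which promoter is used. The windows run from 250 bases before to 50 bases after each start site (RefSeq, GRCh38.p14), and 52 windows of 47 members were found. PCDHA3, PCDHA13, PCDHB6, PCDHB11, PCDHGA12 and PCDHGC5 had no entry. The 6 beta stretches belong to members that were higher (PCDHB10, PCDHB9, PCDHB14), not past the threshold (PCDHB3) or lower (PCDHB12, PCDHB15) in libraries labelled TRPM2 KO in at least 1 treatment, as described further on. The alpha and gamma stretches are from PCDHA10, PCDHA4, PCDHGA4 and PCDHGC4. All are on the plus strand, 5′ to 3′, and the capitals mark the motif GGTGGCGCT in beta, GATGTCGCT in alpha and CGCT in gamma genes.

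PCDHB10 (chr5:141192284-141192343): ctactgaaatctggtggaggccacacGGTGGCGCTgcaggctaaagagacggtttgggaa
PCDHB9 (chr5:141187059-141187118): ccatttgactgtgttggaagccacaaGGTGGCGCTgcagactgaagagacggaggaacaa
PCDHB14 (chr5:141223248-141223307): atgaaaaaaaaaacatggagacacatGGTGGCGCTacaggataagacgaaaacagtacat
PCDHB3 (chr5:141100378-141100437): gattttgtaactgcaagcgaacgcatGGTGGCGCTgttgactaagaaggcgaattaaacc
PCDHB12 (chr5:141208628-141208687): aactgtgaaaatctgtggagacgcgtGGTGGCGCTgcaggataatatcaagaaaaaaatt
PCDHB15 (chr5:141245299-141245358): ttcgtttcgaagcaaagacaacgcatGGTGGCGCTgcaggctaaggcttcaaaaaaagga
PCDHA10 (chr5:140855826-140855885): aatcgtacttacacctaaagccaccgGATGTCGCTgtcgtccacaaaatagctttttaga
PCDHA4 (chr5:140806964-140807023): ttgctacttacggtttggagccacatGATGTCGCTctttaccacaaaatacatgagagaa
PCDHGA4 (chr5:141354950-141355004): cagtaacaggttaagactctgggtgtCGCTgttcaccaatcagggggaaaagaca
PCDHGC4 (chr5:141484942-141484996): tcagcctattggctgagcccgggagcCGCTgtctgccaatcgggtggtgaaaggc

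The 4-letter core CGCT, searched on both strands, was in a window of 46 of the 47 members and in 70.0% of all 35116 windows of the table, so its presence alone sets the members little apart. The longer GGTGGCGCT, which contains that core and was chosen after the sequences were seen, was found in 13 of 14 beta genes, in 0 of 13 alpha and 0 of 20 gamma genes, and in 0.501% of all windows. GATGTCGCT, chosen in the same way and also containing the core, was found in 9 of 13 alpha genes and in 0.105% of all windows. A degenerate core resembling that of CTCF was found in 1 member, PCDHB9, and in 10.6% of all windows. The beta motif occurred in members on either side of the genotype comparison, 43 bases before the start of PCDHB10 and 65 bases before that of PCDHB12. A match describes these letters only and shows neither binding nor its absence.

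A small set of members supplied most of the reads in every clone. Over the 16 libraries the members together took 382 to 466 normalized CPM, which is 0.0385% to 0.0471% of a library's reads. PCDHGC3, PCDHGB7, PCDHGC4 and PCDHGA7 supplied 54.6% of all member reads, and the 10 highest members supplied 80.6%. Of the 53 members, 11 had a mean of at least 10 normalized CPM, 24 lay between 1 and 10, and 18 were under 1. Reads were at 0 in at least 1 library for 21 members, which at this depth (10481177 to 25086085 reads per library) limits their level there to the 3-read floor given above.

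Levels of different genes were compared per kb of exon that no other annotated gene covers, because alpha and gamma members share their constant exons. On that scale PCDHGC3, a C-type gene, was the highest member in all 16 libraries, with 24.6 to 32.1 normalized CPM per kb. PCDHGB7 followed with 13.6 to 25.7 and PCDHGC4 with 13.9 to 25.1 normalized CPM per kb. Over all libraries the ranges of these 2 genes overlapped almost fully, and their order differed by label: PCDHGB7 stood above PCDHGC4 in all 8 libraries labelled TRPM2 KO, and PCDHGC4 stood above PCDHGB7 in 6 of 8 Scr libraries. PCDHGA7 had 8.23 to 13.5, PCDHB3 had 7.56 to 10.8 and PCDHAC2 had 6.48 to 10.7 normalized CPM per kb, and these 3 ranges overlapped as well. The next members were PCDHB10, PCDHB6 and PCDHB14, whose ranges overlapped each other. Between 35.6% and 78.7% of an alpha or gamma gene's exon bases were its own. Reads from the constant exons cannot be traced to a promoter, and whether the authors' counting kept or dropped them is not given in the sources used here. Several alpha genes were at 0 reads in libraries in which PCDHAC2 had many, so shared-exon reads were not credited to every member.

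**Figure D1:**
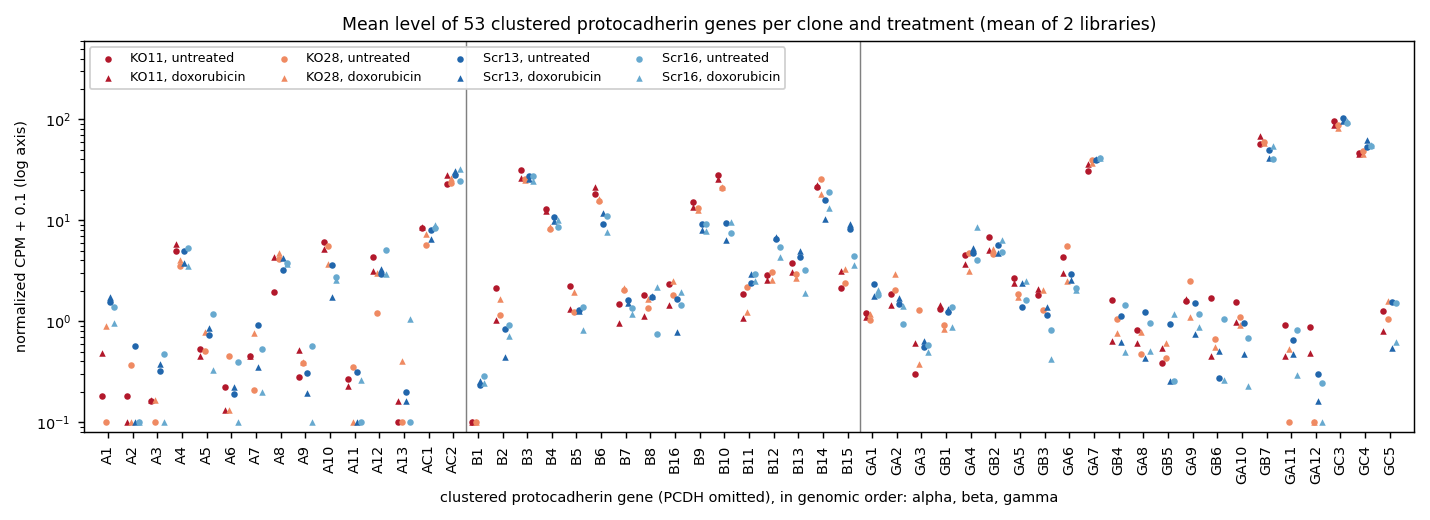
Level of each of the 53 genes in genomic order (horizontal axis) as normalized CPM plus 0.1 on a log axis. Each point is the mean of the 2 libraries of a clone and treatment; colours are clones, circles untreated and triangles doxorubicin. PCDHGC3, PCDHGB7, PCDHGC4, PCDHGA7, PCDHB3 and PCDHAC2 stand high in all 4 clones, while most alternate alpha genes stand low in all 4.

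The 15 alpha genes summed to 43.1 to 58.3 normalized CPM per library, and the C-type genes PCDHAC1 and PCDHAC2 took 54.6% to 75% of the alpha reads. PCDHAC2 ranged from 20.7 to 34.2 normalized CPM and PCDHAC1 from 5.32 to 11.2. Of the 13 alternate alpha genes, 4 had a mean of at least 1 normalized CPM. PCDHA4 ranged from 1.81 to 7.49 and PCDHA10 from 1.54 to 6.5 normalized CPM, and 9 alpha genes had a mean under 1.

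The 16 beta genes summed to 89.5 to 148 normalized CPM per library, 6 of them had a mean of at least 10, and only PCDHB1 had a mean under 1. PCDHB3 was the steadiest of the abundant beta genes, at 22.7 to 32.3 normalized CPM over the 16 libraries. The 22 gamma genes summed to 232 to 290 normalized CPM, of which their C-type genes took 49.4% to 60.2%. Among its 19 alternate genes, PCDHGB7 (38.0 to 71.5 normalized CPM) and PCDHGA7 (26.8 to 44.0) were the only ones with a mean of at least 10. The next gamma-A genes were PCDHGA4 (2.75 to 9.98), PCDHGA6 (1.43 to 6.27) and PCDHGA5 (0.779 to 3.99), and the next gamma-B genes were PCDHGB2 (1.72 to 8.67), PCDHGB3 (0 to 2.63) and PCDHGB1 (0 to 2.33). The C-type gene PCDHGC5 had 0 to 2.03 normalized CPM.

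The comparison of genotypes asked whether libraries labelled TRPM2 KO used other members than scrambled controls. Untreated, 37 of the 53 members reached 1 normalized CPM in 4 or more libraries and were tested. Of these, 3 rose (PCDHB10, PCDHB6 and PCDHGB7) and 2 fell (PCDHB12 and PCDHB15) at an adjusted p under 0.05 (limma on log2 of normalized CPM + 1, Benjamini-Hochberg over all genes tested). Among all 14364 genes tested, 4.84% passed, 2.3% as higher and 2.54% as lower. The 5 called members are 13.5% of the members tested, and 4 of them are beta genes. The median log2 difference of the tested members was 0.10, beside -0.0073 for all genes. The groups did not overlap for 6 members, 16.2% of those tested, beside 9.29% of all genes.

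PCDHB10 (chr5:141192353-141195642), a beta gene, showed the largest difference. Untreated, it stood at 29.4 and 26.9 normalized CPM in KO11, 18.8 and 22.4 in KO28, 11.1 and 7.37 in Scr13 and 4.97 and 9.71 in Scr16. All libraries labelled TRPM2 KO were above all Scr libraries. Group means were 24.4 ± 4.68 and 8.29 ± 2.69 (SD, n = 4 libraries each), a log2 difference of 1.48 ± 0.20 (SE, limma, adjusted p = 6.25e-05). After doxorubicin, in separate libraries of the same clones, it stood at 27.4 and 23.8 in KO11, 23.2 and 19.3 in KO28, 6.0 and 6.62 in Scr13 and 9.41 and 9.80 in Scr16. The groups again did not overlap, with a log2 difference of 1.46 ± 0.18 (SE, limma, adjusted p = 1.03e-05). The exact two-sided permutation test gave p = 0.0286 in each treatment, the smallest value that 4 libraries against 4 allow. PCDHB10 was past the threshold with any 1 library or any 1 clone left out, in both treatments.

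PCDHB6, another beta gene, rose less. Untreated, it stood at 17.9 and 17.9 normalized CPM in KO11, 12.1 and 18.8 in KO28, 9.88 and 8.41 in Scr13 and 11.05 and 10.6 in Scr16. The groups did not overlap, although the lowest library of KO28 lay close to Scr16, and the log2 difference was 0.68 ± 0.17 (SE, limma, adjusted p = 0.021). After doxorubicin PCDHB6 was at 21.7 and 20.5 in KO11, 15.9 and 16.6 in KO28, 11.05 and 12.5 in Scr13 and 5.89 and 9.35 in Scr16. The groups stayed apart, with a log2 difference of 0.91 ± 0.20 (SE, limma, adjusted p = 0.00431).

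PCDHGB7, the most abundant alternate gamma gene, was at 57.0 and 56.8 normalized CPM in KO11, 57.7 and 61.1 in KO28, 53.5 and 45.7 in Scr13 and 38.0 and 42.5 in Scr16 without treatment. Its log2 difference of 0.38 ± 0.10 (SE, limma, adjusted p = 0.0361) is a 1.30-fold step. After doxorubicin the values were 71.5 and 64.6 (KO11), 54.2 and 63.3 (KO28), 39.5 and 43.8 (Scr13) and 61.4 and 47.8 (Scr16). Replicate 1 of Scr16 then lay among those labelled TRPM2 KO, so the groups overlapped, and the log2 difference was 0.40 ± 0.12 (SE, limma, adjusted p = 0.0386).

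PCDHB12 and PCDHB15 went the other way. PCDHB12 was at 2.98 and 2.53 normalized CPM in untreated KO11, 2.41 and 3.50 in KO28, 4.92 and 7.95 in Scr13 and 6.44 and 4.32 in Scr16. No library labelled TRPM2 KO reached the lowest Scr library, and PCDHB12 fell by 0.82 on the log2 scale (SE 0.23, limma, adjusted p = 0.04). The difference was -1.04 with edgeR (adjusted p = 0.0557), -1.01 with reads summed per clone (edgeR, 0.103) and -0.82 with no filter on low values (limma, 0.206), so it was as large or larger there while the call was lost. Over its 20 alternatives the adjusted p ran from 0.0122 to 0.417. After doxorubicin PCDHB12 was at 2.18 and 2.77 in KO11, 2.81 and 2.15 in KO28, 6.83 and 6.56 in Scr13 and 4.28 and 4.09 in Scr16. The groups were again apart, and it fell by 0.87 (SE 0.25, limma, adjusted p = 0.0288).

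PCDHB15 was at 1.87 and 2.17 normalized CPM in untreated KO11, 1.68 and 2.92 in KO28, 5.35 and 10.7 in Scr13 and 5.77 and 2.90 in Scr16. It fell by 1.09 on the log2 scale (SE 0.28, limma, adjusted p = 0.0254), with replicate 2 of Scr16 level with the highest KO28 library. After doxorubicin it was at 2.50 and 3.59 in KO11, 3.27 and 3.11 in KO28, 7.60 and 10.5 in Scr13 and 3.71 and 3.31 in Scr16. Only Scr13 was then clearly higher, and the log2 difference of -0.71 ± 0.29 (SE) did not pass (limma, adjusted p = 0.157). PCDHB15 passed after doxorubicin when Scr16 was left out, with a log2 difference of -1.28.

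After doxorubicin, 34 members were tested. Of these, 5 rose (PCDHB10, PCDHB6, PCDHB14, PCDHB9 and PCDHGB7) and 3 fell (PCDHB12, PCDHGC4 and PCDHGA4). Among all 14572 genes tested, 8.69% passed, 4.52% as higher and 4.17% as lower. The 8 members are 23.5% of those tested, and the median log2 difference of the tested members was 0.068, beside 0.014 for all genes. The groups did not overlap for 5 members, 14.7% of those tested, beside 13.2% of all genes.

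PCDHB14, a beta gene, was at 22.5 and 21.9 normalized CPM in KO11 after doxorubicin, 16.7 and 19.1 in KO28, 7.72 and 12.6 in Scr13 and 10.7 and 15.3 in Scr16. The groups were apart, with a log2 difference of 0.77 ± 0.19 (SE, limma, adjusted p = 0.00959). Untreated, its means of 23.3 ± 5.43 and 17.3 ± 2.60 (SD, n = 4) overlapped library by library and did not pass (limma, adjusted p = 0.218). PCDHB9 was at 13.5 and 13.2 in KO11 after doxorubicin, 14.8 and 10.2 in KO28, 7.25 and 8.58 in Scr13 and 9.89 and 5.65 in Scr16. Its log2 difference was 0.67 ± 0.20 (SE, limma, adjusted p = 0.0385), and its groups lay narrowly apart. Untreated, PCDHB9 was also apart, at 14.2 ± 1.85 against 9.06 ± 1.86 normalized CPM (SD, n = 4), with an adjusted p just above the threshold (limma, 0.0524).

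The C-type gene PCDHGC4 was at 45.9 and 44.5 normalized CPM in KO11 after doxorubicin, 38.9 and 51.0 in KO28, 55.2 and 70.2 in Scr13 and 49.0 and 62.9 in Scr16. It fell by 0.38 on the log2 scale (SE 0.11, limma, adjusted p = 0.0385), with 1 library labelled TRPM2 KO inside the Scr range. PCDHGA4 was at 3.01 and 4.22 in KO11, 2.75 and 3.29 in KO28, 4.22 and 6.25 in Scr13 and 9.98 and 6.88 in Scr16. It fell by 0.82 (SE 0.25, limma, adjusted p = 0.0442), and Scr16 was the highest clone. Untreated, the log2 differences were -0.17 ± 0.11 for PCDHGC4 and 0.064 ± 0.21 for PCDHGA4 (SE), and neither passed.

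**Figure D2:**
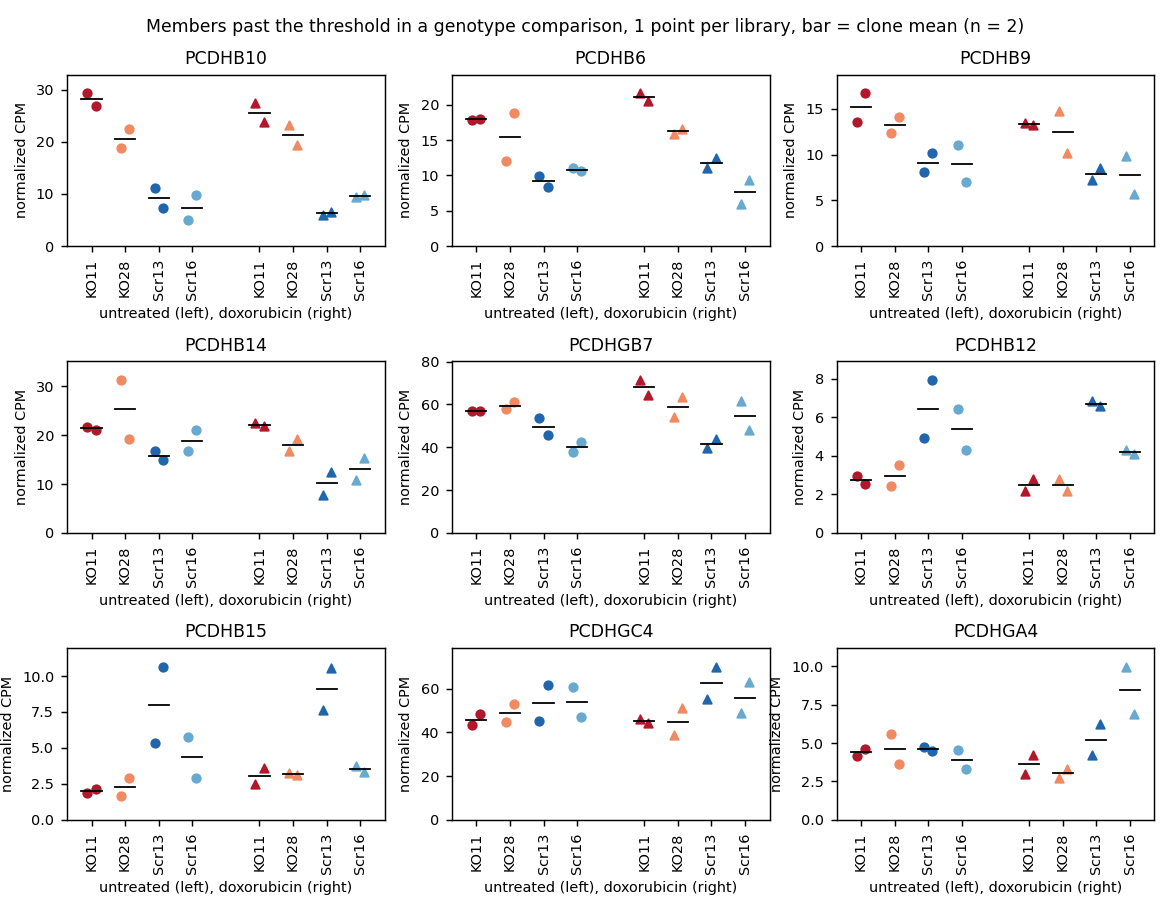
Normalized CPM of the 9 members called in a genotype comparison, with 1 point per library, 2 libraries per clone, and a bar at the clone mean; untreated libraries are on the left of each panel. PCDHB10 is at 18.8 or more in every library labelled TRPM2 KO and at 11.1 or less in every Scr library, whereas PCDHB15 is raised mainly in Scr13.

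The treatments were set side by side, since the libraries differ but the clones are the same. Of the 9 members called in either treatment, 4 were called in both (PCDHB10, PCDHB6, PCDHGB7 and PCDHB12), which is 80% of the untreated and 50% of the doxorubicin calls. The sign was shared for 8 of the 9, and PCDHGA4 was the exception. Over the 34 members tested in both, the log2 differences had the same sign for 27 (across genes, Pearson r = 0.79 and Spearman rho = 0.75, over shared clones). The test of a change of the genotype difference with doxorubicin called 0 of 39 members (limma), and 0 by edgeR and by DESeq2 as well. At an unadjusted p under 0.05 it gave 1 member, PCDHGA4, beside 8.18% of all genes, and 0.0261% of all genes passed after adjustment.

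**Figure D3:**
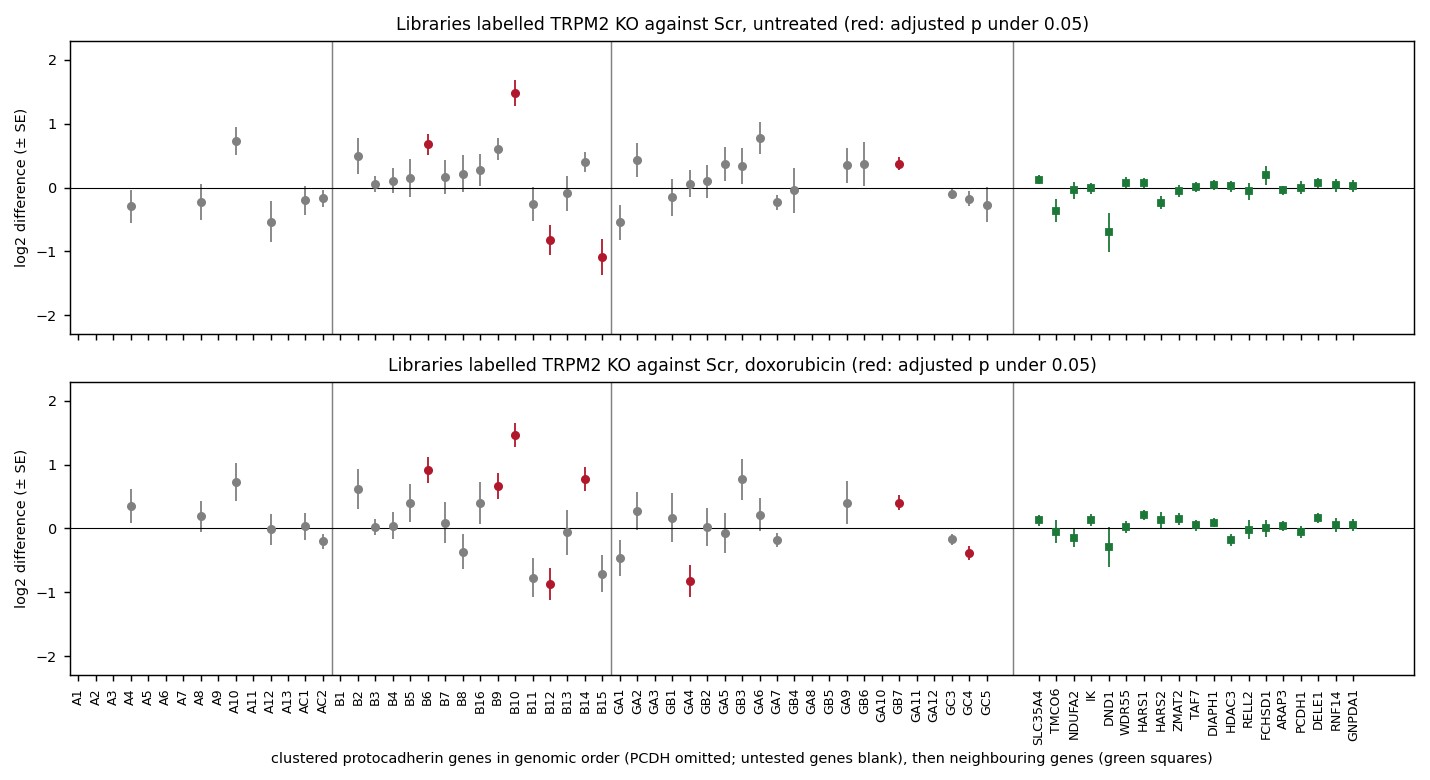
Log2 difference (libraries labelled TRPM2 KO minus Scr, with SE) for the tested members in genomic order, untreated above and doxorubicin below, followed by neighbouring genes as green squares; red points passed the adjusted threshold. Called members are spread between PCDHB6 and PCDHGC4, with higher and lower ones interspersed among uncalled members, and no neighbouring gene is called.

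The summed beta level was higher in libraries labelled TRPM2 KO, at 136 ± 12.1 against 106 ± 7.39 normalized CPM untreated and 128 ± 11.3 against 95.6 ± 7.89 after doxorubicin (SD, n = 4 each). Without PCDHB10 the sums were 112 ± 8.01 against 97.7 ± 9.29 and 104 ± 8.05 against 87.6 ± 9.11, so that gene carried a large part of the step, and the ranges then overlapped both untreated (104 to 121 against 86.0 to 106) and after doxorubicin (93.0 to 112 against 80.1 to 101). PCDHB10 supplied 15.1% to 20.3% of the beta reads in untreated libraries labelled TRPM2 KO and 4.50% to 10.5% in untreated Scr libraries. After doxorubicin the shares were 17.2% to 19.7% and 6.18% to 10.6%. PCDHB12 went from 4.51% to 7.08% of the beta reads in untreated Scr libraries to 1.71% to 2.76% in those labelled TRPM2 KO. Alpha sums (46.8 ± 4.64 and 53.7 ± 4.49 untreated) and gamma sums (263.1 ± 10.9 and 263.3 ± 13.2 untreated) overlapped between the groups. In bulk RNA, fewer cells that use a promoter and less RNA per cell cannot be told apart.

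**Figure D4:**
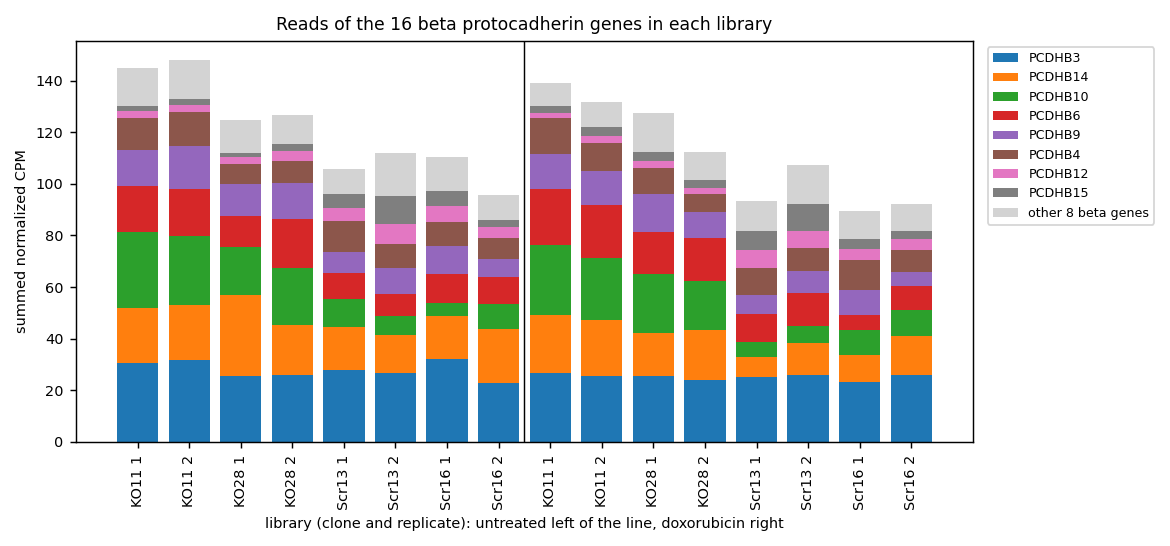
Summed normalized CPM of the 16 beta genes in each library (stacked bars from 0), coloured by gene, with untreated libraries left of the line and doxorubicin right. Within each treatment, the PCDHB10 and PCDHB6 bands are wider in libraries labelled KO11 and KO28, the PCDHB12 band is wider in Scr13 and Scr16, and the PCDHB15 band is wider in Scr13 than in KO11 and KO28.

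Beta genes resemble one another in sequence, so some reads could have been split between them. The share of a member's 50-base words that also occur in another member or in a noncoding gene of the locus was 0% to 45.8% over the beta genes, with a median of 14.2%. It was 35.4% for PCDHB10, 23.2% with PCDHB9 alone, and 14.5% for PCDHB6. The share for PCDHB9 was 20.6%, and 16.9% with PCDHB10 alone. How reads from shared words were assigned was not tested, so the levels of PCDHB10 and PCDHB9 are uncertain to an unmeasured extent.

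Leaving out a library or a clone lowered the number of calls in most cases, while each called member kept the direction of its difference. With 1 library left out, the untreated log2 difference ran from 1.28 to 1.62 for PCDHB10, 0.60 to 0.81 for PCDHB6, -0.94 to -0.69 for PCDHB12, -1.35 to -0.82 for PCDHB15 and 0.30 to 0.46 for PCDHGB7. After doxorubicin it ran from 1.35 to 1.56 for PCDHB10, 0.71 to 1.04 for PCDHB6, 0.60 to 0.91 for PCDHB14, 0.54 to 0.78 for PCDHB9, -0.97 to -0.76 for PCDHB12, -0.999 to -0.64 for PCDHGA4, 0.32 to 0.52 for PCDHGB7 and -0.47 to -0.30 for PCDHGC4. Untreated, the count of 5 became 2 without replicate 1 of KO11 and 1 without replicate 2 of KO11. It was 2 and 3 when replicate 1 or 2 of KO28 was left out. For Scr13 it was 2 and 1 without replicates 1 and 2, and it was 3 without replicate 1 of Scr16. These counts include members not called with all libraries, PCDHGA6 without replicate 1 of KO11 and PCDHB9 without replicate 1 of Scr16. After doxorubicin, the 8 calls became 2 without replicate 1 and 3 without replicate 2 of KO11, 4 for replicate 1 of KO28, 5 and 4 for replicates 1 and 2 of Scr13, and 4 for replicate 2 of Scr16. Counted over all alternatives run, the untreated call held in 21 of 21 for PCDHB10, 12 of 21 for PCDHB6, 10 of 20 for PCDHB15, 9 of 21 for PCDHGB7 and 7 of 20 for PCDHB12. After doxorubicin it held in 21 of 21 for PCDHB10, 20 of 21 for PCDHB6, 17 of 21 for PCDHB14, 12 of 21 for PCDHGC4, 11 of 21 for PCDHB9, 9 of 21 for PCDHGB7, 9 of 20 for PCDHB12 and 6 of 20 for PCDHGA4. With a whole clone left out, 2 untreated members passed in each case, PCDHB10 and 1 other. The other was PCDHB6 without KO28, PCDHGB7 without Scr13 and PCDHB15 without Scr16. Without KO11 it was PCDHA12, which was not called with all clones.

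Differences between clones of one genotype give the spread against which a genotype difference is read, since promoter choice can be fixed in a single cell and inherited by its clone. No member passed the joint test of KO28 against KO11 and Scr16 against Scr13, either untreated (0 of 42 tested) or after doxorubicin (0 of 37; limma F-test). Passing genes were few in all, 0.026% and 0.122% of those tested. At an unadjusted p under 0.05 there were 2 members untreated, 4.76% beside 8.69% of all genes, and 4 after doxorubicin, 10.8% beside 6.5%. Neither edgeR nor DESeq2 called a member. With 2 libraries per clone the median SE of a member's clone difference was 0.37 untreated and 0.38 after doxorubicin, so log2 steps of that size are within error.

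The smallest untreated p was that of PCDHA12, an alternate alpha gene named after its values were seen. It was at 4.08 and 4.28 normalized CPM in KO11 and at 1.14 and 1.09 in KO28, beside 3.03 and 2.59 in Scr13 and 4.97 and 5.05 in Scr16. The log2 difference KO28 minus KO11 was -1.29 (95% interval -1.96 to -0.62), and the joint test did not pass (limma, adjusted p = 0.335). After doxorubicin the clones were at 3.26 and 2.83 (KO11) and 2.49 and 3.29 (KO28), so the untreated gap was not seen again. PCDHB15 had the smallest p after doxorubicin, with a log2 difference Scr16 minus Scr13 of -1.15 (95% interval -1.86 to -0.43, limma, adjusted p = 0.561), in the same direction as the untreated values given above. For PCDHB10 the clone differences were -0.43 (95% interval -1.01 to 0.14) and -0.33 (-0.91 to 0.24) untreated, KO28 minus KO11 first. After doxorubicin they were -0.26 (-0.75 to 0.23) and 0.54 (0.046 to 1.03), so the Scr difference changed sign. The smaller of the untreated PCDHB10 clone means in the libraries labelled TRPM2 KO stayed above the larger Scr clone mean. PCDHGB7 and PCDHB6, both called between genotypes, also had an unadjusted p under 0.05 between clones after doxorubicin (limma F-test). Their Scr16 minus Scr13 differences were 0.37 (95% interval 0.068 to 0.68) and -0.59 (-1.12 to -0.073).

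**Figure D5:**
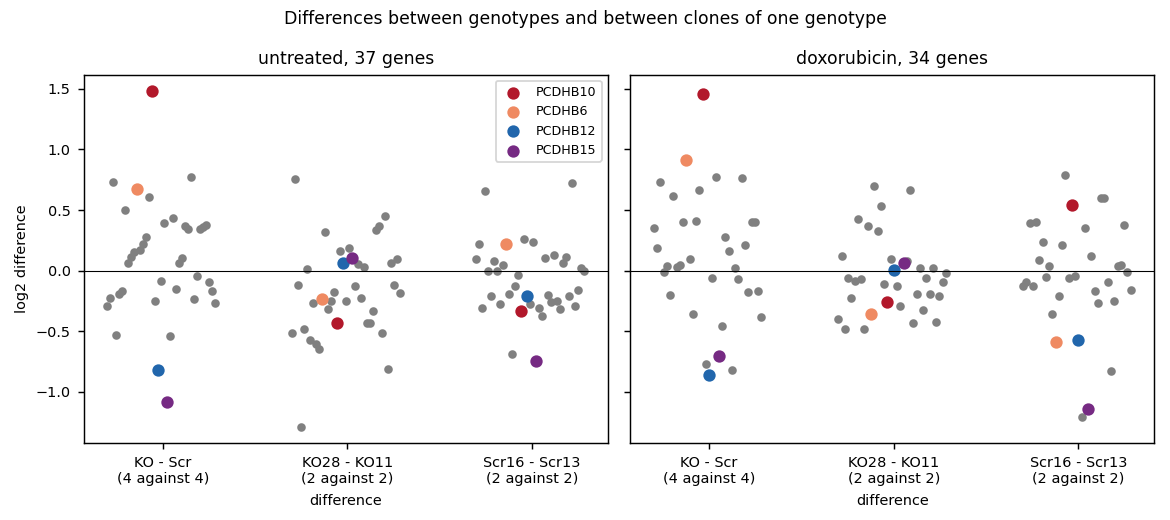
Log2 differences of the members tested in both comparisons, between genotypes (4 libraries against 4) and between clones of one genotype (2 against 2), untreated on the left and doxorubicin on the right; each point is a gene. PCDHB10 lies at 1.48 and 1.46 in the genotype column and within 0.54 of zero in the clone columns, while PCDHB15 is as far out between Scr13 and Scr16 after doxorubicin as between genotypes untreated.

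Across the 53 members, log2 levels of the clone and treatment means correlated at r = 0.93 to 0.99 over the 28 pairs (a description across genes). Pairs of one label had a median r of 0.978, and pairs of different labels a median of 0.953. The 2 libraries of a clone correlated at 0.94 to 0.98. Members used by one clone were thus largely those used by the others.

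Doxorubicin changed few members; levels printed here come from tables normalized separately, while the test used a common normalization. Over all 16 libraries, with clone as a fixed term, PCDHAC2 rose and PCDHB14 fell, 2 of 39 tested (5.13%), beside 26.6% of all 15325 genes (14.3% higher and 12.2% lower). PCDHAC2, the C-type alpha gene, went from 25.1 and 20.7 normalized CPM in untreated KO11, 21.6 and 24.4 in KO28, 29.8 and 26.1 in Scr13 and 21.4 and 26.9 in Scr16 to 29.1 and 26.6, 25.1 and 27.3, 28.2 and 32.4, and 34.2 and 30.1 after doxorubicin. The ranges overlap over all libraries, and every clone's mean was higher after treatment. The log2 change was 0.24 ± 0.086 (SE, limma, adjusted p = 0.034). PCDHB14, whose treated values are given above, was at 21.7 and 21.1 in untreated KO11, 31.3 and 19.2 in KO28, 16.7 and 14.9 in Scr13 and 16.7 and 21.0 in Scr16. It fell by 0.38 on the log2 scale (SE 0.13, limma, adjusted p = 0.0235), and its KO11 mean was 22.2 after against 21.4 before treatment.

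The count of 2 was 0 without replicate 1 of treated Scr16, the shallowest library. It was 3, with PCDHA10 added, without replicate 1 of treated KO28. Leaving out any single library of Scr13 (4 libraries) or either untreated library of Scr16 gave 1. So did leaving out untreated replicate 2 or treated replicate 1 of KO11, or untreated replicate 1 or treated replicate 2 of KO28. Without untreated replicate 1 of KO28 that member was PCDHGB4, and neither PCDHAC2 nor PCDHB14 passed. With 1 library left out, PCDHAC2 passed in 8 of 16 fits and PCDHB14 in 11 of 16. For the abundant members the change lay close to zero. It was -0.066 (95% interval -0.18 to 0.051) for PCDHGC3, 0.10 (-0.063 to 0.27) for PCDHGB7, 0.036 (-0.14 to 0.21) for PCDHGC4, 0.036 (-0.13 to 0.20) for PCDHGA7, -0.13 (-0.31 to 0.039) for PCDHB3 and -0.037 (-0.31 to 0.24) for PCDHB10, all log2. Members had larger errors than most genes, with a median SE of 0.19 against 0.10, and their median absolute change was 0.14 against 0.16 for all genes.

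Genes around and connected to the locus were counted in lists. Of 19 tested protein-coding neighbours, which include TAF7 within the span and DIAPH1 next to its gamma end, 0 were called for genotype in either treatment (limma, and 0 by edgeR and DESeq2; 2 untreated and 1 after doxorubicin at an unadjusted p under 0.05; median log2 difference 0.011 untreated and 0.046 after doxorubicin). Of 24 tested chromatin factors of promoter choice or silencing, such as CTCF and the cohesin subunits, 0 were called untreated by limma, edgeR or DESeq2, and 0 had an unadjusted p under 0.05. After doxorubicin 2 were lower (8.33%, beside 4.17% of all genes), DNMT1, the maintenance DNA methyltransferase (by 0.25 log2, limma, adjusted p = 0.0446), and UHRF1, which recruits it (by 0.46, adjusted p = 0.00806). DNMT1 was at 273 ± 13.3 normalized CPM in libraries labelled TRPM2 KO and 324 ± 28.8 in Scr libraries, and UHRF1 at 52.8 ± 5.21 and 73.2 ± 11.1 (SD, n = 4 each).

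Of 17 intracellular partners, 2 were higher in both treatments, 11.8% of the list, beside 2.3% of all genes tested untreated and 4.52% after doxorubicin. PRKCA, protein kinase C alpha, was at 665 ± 50.5 against 246 ± 13.4 normalized CPM untreated and 703 ± 20.9 against 245 ± 16.7 after doxorubicin (SD, n = 4), with log2 differences of 1.43 and 1.52 (limma, adjusted p = 1.14e-10 and 6.06e-12). CYFIP2, a subunit of the actin-regulating WAVE complex, differed by 0.39 and 0.27 log2 (limma, adjusted p = 0.00304 and 0.0285). Among 11 tested protocadherins and related cadherins outside the locus, 6 were higher untreated (54.5%, beside 2.3% of all genes) and 7 after doxorubicin (63.6%, beside 4.52%), and 0 were lower. The largest were PCDH10 (1.78 untreated and 2.50 after doxorubicin on the log2 scale), CDH11 (0.92 and 1.22) and PCDH9 (0.89 and 1.03), all past the threshold in both treatments (limma). The list's median log2 difference was 0.31 untreated and 0.59 after doxorubicin.

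Markers of mesenchymal cells moved with the label. Of 9 tested untreated, 6 were higher in libraries labelled TRPM2 KO and 1, TWIST1, was lower (limma). Among all genes tested untreated, 2.3% were higher and 2.54% lower. Of 8 tested after doxorubicin, 6 were higher and TWIST1 was lower (limma), beside 4.52% of all genes higher and 4.17% lower. The 3 with the largest differences were LUM (2.45 and 3.24 log2), COL3A1 (2.17 and 2.88) and YAP1 (1.91 and 2.18). The list summed to 850 to 1145 normalized CPM in untreated libraries labelled TRPM2 KO and to 427 to 892 in untreated Scr libraries, with replicate 1 of Scr13 at 892. After doxorubicin the sums were 871 to 1208 and 444 to 729. VIM was the most abundant marker (mean 275 normalized CPM), COL1A2 was at 0 in 1 library of each Scr clone after doxorubicin, and PRRX1 was not analysed here.

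Adrenergic markers, which define the usual SH-SY5Y state, were abundant as a sum in all libraries (6002 to 7416 normalized CPM, DBH the highest). TH was near the floor, and CHGA was low in all but replicate 2 of untreated KO11. Among those reported, GATA3 and TBX2 were higher untreated and TBX2 after doxorubicin (limma). Of 3 tested Schwann or glial markers, NGFR fell by 0.80 log2 untreated (limma, adjusted p = 0.0261) and 0 were called after doxorubicin by limma, edgeR or DESeq2, with 0 at an unadjusted p under 0.05. The list summed to 6.94 to 21.6 normalized CPM, with NGFR the highest and SOX10 not analysed here. The part of these markers in the protocadherin differences was not tested.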

How the data were processed

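Values were measured in 16 poly(A) RNA libraries of SH-SY5Y clones. The authors' processing notes name HISAT2 2.1.0, HTSeq, edgeR and GRCh38; annotation release, counting mode and strand setting are not given in the sources used here. The deposited values are a normalized signal (normalized CPM, reads scaled by the authors' adjusted library size). All of them (100%) gave whole reads within 0.001 reads when divided by the step of their column; recovered totals were 10481177 to 25086085 per library. The authors' p-value, q-value, log2 fold change and ranking columns, which hold their own comparisons, were not used.

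Genotypes were compared within each treatment by limma 3.58.1 (trend on abundance) after taking log2 of normalized CPM + 1, which understates changes of low genes; genes reaching 1 normalized CPM in 4 or more of 8 libraries were tested (clones: 2 or more). Because the tables were normalized separately, doxorubicin and interaction tests used TMM factors recomputed from recovered reads over 16 libraries. Benjamini-Hochberg adjustment covered all genes tested, with a threshold of 0.05. Alternatives were edgeR 4.0.16 and DESeq2 1.42.0 on recovered reads, other filters and pseudocounts, and left-out libraries or clones. Single members were also compared by exact two-sided permutation tests. The fits were tested on simulated data. The libraries of each clone differed beyond sampling noise (chi-square per degree of freedom 7.45 to 15.6). Gene positions came from GENCODE 29 and promoter sequences from RefSeq (GRCh38.p14); symbols matched 95.0% of identifiers.

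Members, lists and tests were chosen with earlier results of these data known. Genes named with values were TRPM2, the 4 highest members of each of alpha, beta, gamma-A and gamma-B, the C-type members, members past the threshold (up to 8 per genotype comparison and 6 otherwise), and up to 3 called genes of each list. PCDHA12 and the list genes of the closing section fall outside this rule and were named after their values were seen. Some marker genes of the lists are not reported here.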

Additional observations from a re-analysis of the deposited data

Results flagged for a closer look

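Among 22 named members, 88 groups of 4 libraries (label by treatment) were screened for a library standing apart from the other 3, and 4 were found, about what chance gives (1 in 20). PCDHA4 was at 1.81 normalized CPM in untreated KO28 replicate 1, beside 4.68 to 5.0 in the other untreated libraries labelled TRPM2 KO. PCDHB6 was at 12.1 in the same library, beside 17.9 to 18.8. PCDHGB2 was at 8.67 in untreated KO11 replicate 2, beside 4.36 to 4.63. PCDHGA4 was at 3.29 in untreated Scr16 replicate 2, beside 4.49 to 4.72 in the other untreated Scr libraries.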

How the results depend on the processing

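Of 420 alternative values for the 20 named log2 differences, 292 kept direction and side of the threshold, 121 kept direction but no longer passed, 4 passed only there and 3 changed sign; the cause was not tested. The sign changed only for PCDHGA4 untreated, without clone Scr16 (-0.037), Scr16 replicate 2 or KO28 replicate 1 (range with 1 library left out -0.031 to 0.14). Members called (5 untreated, 8 after doxorubicin, 2 for doxorubicin) were 2, 2 and 1 with no filter on low values. Untreated, those without the filter were PCDHB10 and PCDHA1, and PCDHA1 was not tested under the filter. With reads summed per clone (edgeR) members called were 3 untreated and 5 after doxorubicin. Without clone KO11, KO28, Scr13 or Scr16 they were 2, 2, 2 and 2 untreated, and 1, 3, 3 and 7 after doxorubicin. Of these, PCDHA12 untreated without KO11 and PCDHB15 after doxorubicin without Scr16 were not called with all clones. Without the clone term 0 members passed for doxorubicin. With 1 library left out, members called ranged from 1 to 4 untreated, 2 to 7 after doxorubicin, 0 to 3 for doxorubicin, and 0 to 0 between clones and for the interaction.

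Genes called untreated were 695, but 368 with no filter, 330 without Scr13 and 327 without Scr16, and 508 to 678 with 1 library left out. After doxorubicin they were 1266, but 510 without KO11 and 575 without KO28, and 814 to 1314 with 1 library left out. Between clones, 4 genes untreated became 88 (DESeq2), 1 (edgeR), 1 (no filter) and 1 to 12 (1 library left out). After doxorubicin 19 became 60 (DESeq2), 8 (edgeR), 0 (no filter), 11 (pseudocount 0.25) and 5 to 137. For the interaction, 4 became 58 (DESeq2) and 1 to 17, and for doxorubicin 4069 became 3528 to 4088. A replicate block left the member counts at 5, 8, 0, 0, 2 and 0, and moved genes called to 7 and 68 between clones and to 22 for the interaction. Same-numbered deviations correlated above 0.1 in 2 of 28 pairs (lowest -0.10, median 0.035, highest 0.13). No strong pairing by replicate number was thus seen, and these correlations cannot exclude a weak one. Members that did not reach the level filter of a comparison were not tested in it.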

Other observations

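Of the 24 tested chromatin factors, 11 fell and 0 rose after doxorubicin over the 16 libraries (limma, adjusted p), beside 12.2% of all genes lower and 14.3% higher. UHRF1 fell by 0.84 log2 (limma, adjusted p = 2.15e-09), CTCF by 0.29 (0.000383), the cohesin subunit SMC1A by 0.34 (7.53e-06) and DNMT1 by 0.32 (3.45e-05), and the list's median was -0.14. These genes were named after their values were seen.

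Of 17 intracellular partners, 3 rose and 3 fell after doxorubicin (35.3% called, beside 26.6% of all genes), with CYFIP2 up by 0.88 log2 and MARCKS, a membrane-bound kinase substrate, down (-0.49, limma). Of the 19 neighbours, 4 rose (21.1%, beside 14.3% of all genes) and 0 fell, among them FCHSD1 (0.78 log2) and RELL2 (0.49), which lie beyond DIAPH1 and HDAC3 on the gamma side of the locus. RELL2 and FCHSD1 overlap on opposite strands over part of their length. The strand setting of the counting is not given in the sources used here, so reads from the overlap cannot be told apart. DIAPH1, which lies next to the gamma array, was at 0.02 log2 and HDAC3 at 0.039, and neither was called (limma). These genes too were named after their values were seen. Of the noncoding genes of the locus (pseudogenes and antisense genes), 0 of 5 tested were called for genotype untreated, 0 of 3 after doxorubicin and 0 of 7 for doxorubicin by limma, edgeR or DESeq2, and 0 had an unadjusted p under 0.05 in any of these.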
